A study of Mus musculus with 6 samples.

Results

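The enzymes of glycolysis, of lactate handling and of the tricarboxylic acid (TCA) cycle were examined as a set of 33 genes, chosen by name from a fixed list and found by gene symbol in all 6 libraries, among 24421 symbols in all. RNA was sequenced from endothelial cells that flow cytometry had sorted out of B16F0 tumours, which grow from a transplantable mouse melanoma line. All hosts were C57BL/6 mice carrying subcutaneous tumours for 17 days, dosed at 50 mg/kg at intervals of 3 days with control IgG or with 15C4, which binds and blocks LRG1, a glycoprotein that cells secrete. Each treatment has 3 libraries, called 15C4 1, 2 and 3 and IgG 1, 2 and 3. The sources used here do not give the sex or age of the mice, the markers of the sort, or whether a library is 1 mouse or a pool. The p-values thus describe the spread between libraries, part of which may be technical.

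Glycolysis splits glucose into pyruvate in the cytosol. Its preparatory steps spend ATP, its payoff steps return ATP, and lactate dehydrogenase with the monocarboxylate transporters turns pyruvate into lactate and moves it across the cell membrane. The pyruvate dehydrogenase complex instead feeds pyruvate as acetyl-CoA into the TCA cycle in mitochondria. Endothelial cells are known for drawing much of their ATP from glycolysis, with PFKFB3 as an activator during sprouting, and melanoma cells are likewise strongly glycolytic. Many glycolytic genes are targets of the hypoxia-inducible factors.

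Levels are counts scaled to a library total of 1000000 (CPM). Fold changes are 15C4 over IgG on the log2 scale from edgeR's quasi-likelihood test on all 11144 genes that passed the filter on low counts, with p-values adjusted over all of them by Benjamini-Hochberg. All 33 members passed the filter. Total counts lay between 5175600 and 19572202. One library, 15C4 3, lay far from the other 5 on the leading principal component, with 1537 of the tested genes at 0 against 31 to 507 elsewhere. The label of sorted endothelial cells was checked against markers. The 12 melanocyte markers summed to between 24420.1 and 29407 CPM, led by Dct, an enzyme of melanin synthesis, and none was at 0 in any library. The 16 pan-endothelial markers were present but lower in sum than these in all libraries, at 1384, 2949 and 1506 CPM in 15C4 and 1686, 2399.6 and 195 CPM in IgG, with Erg at 0 in IgG 3 and Cldn5 at 0 in 15C4 3. Every member is expressed by many cell types, so its level cannot be assigned to endothelial or melanoma cells, and in such bulk samples fewer cells of a type cannot be told apart from less RNA per cell. The part of the mixture in the values that follow was not tested.

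No member passed the test between 15C4 and IgG. The same held for the whole table, where 0 of 11144 genes passed in edgeR (0%, smallest adjusted p = 0.689), and the smallest adjusted p of a member was 0.9997. DESeq2 called 23 of the 11144 genes (0.206%) and limma-voom 0, and neither called a member. An unadjusted p under 0.05 was reached by 288 genes in edgeR, 455 in DESeq2 and 461 in limma-voom. At that threshold in edgeR, Gpi1 and Pfkp were lower and Idh1 was higher in 15C4, against 1.33% of all tested genes lower and 1.26% higher. DESeq2 had 4 members (Gpi1, Pfkp, Eno2 and Idh1) beside its 455 of 11144 genes. limma-voom had 2 (Gpi1 and Pfkp) beside its 461. In edgeR 0 members reached that threshold without 15C4 3, and 0 without IgG 2. In sign, the 2 arms of the pathway differed. Of the 21 glycolysis and lactate members, 17 were fitted below 0 (median log2 fold change -0.45), and of the 12 pyruvate dehydrogenase and TCA members 9 were fitted above 0 (median 0.19). These 12 are called the mitochondrial arm below, although Idh1 and Mdh1, both fitted above 0, encode cytosolic enzymes. Over all tested genes 49.3% were below 0 and the median was 0.010. The difference between the arms was not tested.

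**Figure D1:**
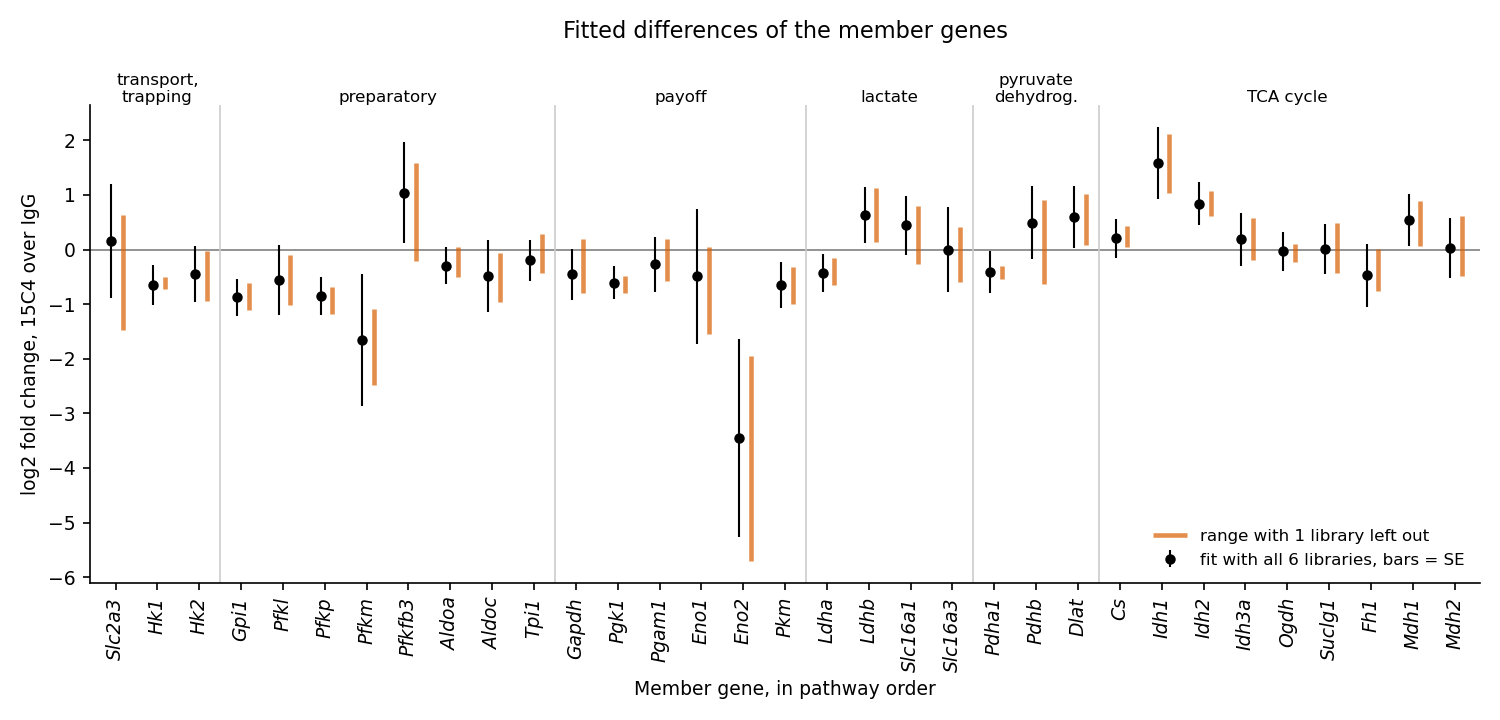
Log2 fold change (15C4 over IgG) of the 33 members in pathway order, from edgeR with all 6 libraries (black points, bars are SE), beside the range of the fit when 1 library is left out (orange). The preparatory and payoff genes lie mostly below 0, where Gpi1 is at -0.88 and Pfkp at -0.85, and Idh1 is the highest of the set at 1.59.

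These counts rested in part on single libraries. Without IgG 3, 12 of the 21 glycolysis and lactate members were below 0 and their median was -0.16. Without 15C4 3, 5 of the 12 mitochondrial-arm members were above 0, in place of 9, and their median was -0.21. With limma-voom 6 of the 12 were above 0, and with scaling by library totals 7. Over all tested genes, 57.7% were below 0 with limma-voom and 54.8% with library totals, against 49.3% in the main fit. With 15C4 3 and IgG 3 both left out, a comparison added after the values were seen, 14 of 21 were below 0 (median -0.19) and 8 of 12 above 0 (median 0.081).

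Non-overlap of the groups gave a second count. For 6 of the 33 members every 15C4 library lay below every IgG library in CPM, and for 0 members every one lay above. Over all tested genes the shares were 6.64% and 2.88%. These members were Hk1, Gpi1, Pfkp, Pfkm and Pgk1 of glycolysis and Pdha1 of the pyruvate dehydrogenase complex. When CPM were further scaled by TMM or by RLE factors, Pgk1 and Pdha1 overlapped and 4 members were left, beside 5.92% and 5.64% of tested genes. The count was 12 without IgG 1 (10.6% of tested genes), the library in which Aldoa, Aldoc, Pgam1, Pkm and Ldha were lowest among the IgG libraries.

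**Figure D2:**
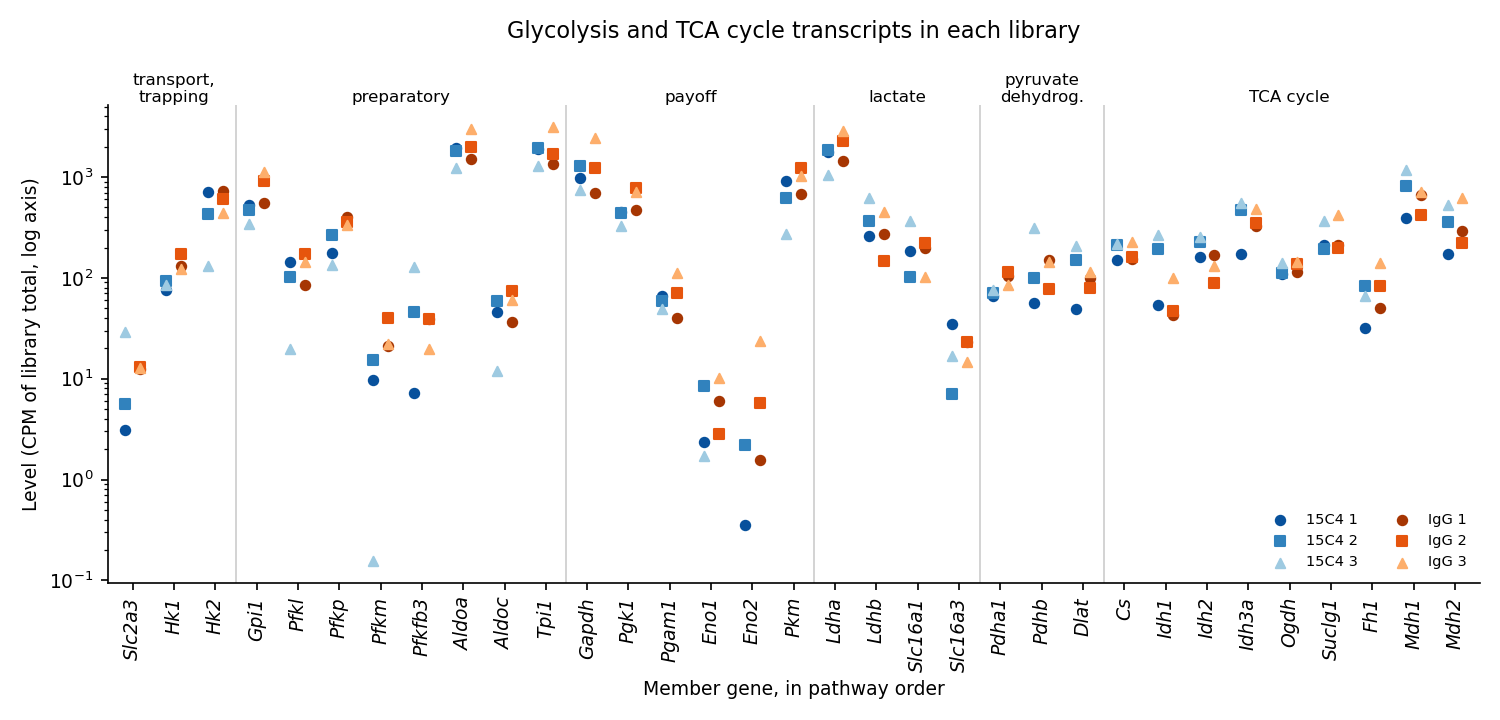
Level of each member in each library, in CPM of the library total on a log axis, with 15C4 libraries in blue and IgG libraries in orange and the replicate number as the point shape. Drawn levels run from 0.156 CPM (Pfkm in 15C4 3) to 3160.1 CPM (Tpi1 in IgG 3), the 15C4 points of Gpi1, Pfkp, Hk1, Pfkm, Pgk1 and Pdha1 all lie below the IgG points, and the count of 0 of Eno2 in 15C4 3 is not drawn.

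Glucose entry and trapping showed 1 member whose groups were separate. Hk1, a hexokinase that phosphorylates glucose and so keeps it in the cell (chromosome 10, 62268855 to 62379908 on GRCm38), was at 75.0, 92.5 and 84.2 CPM in 15C4 1, 2 and 3 and at 129.8, 173 and 122 CPM in IgG 1, 2 and 3. The 15C4 libraries were tight and all below the IgG libraries (mean 83.9 ± 8.77 against 141 ± 27.5 CPM, SD, n = 3 each). The fitted log2 fold change was -0.65 (SE 0.37), and between -0.72 and -0.50 with 1 library left out. Hk2, the inducible hexokinase, was at 713, 425 and 132 CPM in 15C4 and 723, 605 and 442 CPM in IgG. Only 15C4 3 was far below the others, and without it the log2 fold change of Hk2 moved from -0.44 to -0.025. Slc2a3, which encodes the glucose transporter GLUT3, was scarce. Its IgG libraries lay between 12.4 and 13.1 CPM, while 15C4 3 was above them at 28.9 CPM and 15C4 1 and 2 below them at 3.09 and 5.67 CPM. Its fit of 0.15 (SE 1.05) went to -1.47 without 15C4 3.

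The preparatory phase held the 2 glycolysis members that were lower at an unadjusted p under 0.05. Gpi1, the isomerase that converts glucose 6-phosphate to fructose 6-phosphate (chromosome 7, 34201330 to 34230336), was at 522, 470.3 and 344 CPM in the 15C4 libraries and at 558, 908 and 1124 CPM in the IgG libraries. All 3 IgG libraries were higher, although IgG 1 was close to 15C4 1. The log2 fold change was -0.88 (SE 0.34, edgeR quasi-likelihood Benjamini-Hochberg adjusted p = 0.9997), and -0.61 without IgG 3. Pfkp, the platelet-type subunit of phosphofructokinase, the committing step of glycolysis (chromosome 13, 6579768 to 6648777), was at 175, 265 and 133 CPM in 15C4 and 404, 361 and 337 CPM in IgG. The gap between the groups, from 265 to 337 CPM, was wider than the range of the IgG libraries and narrower than that of the 15C4 libraries, 133 to 265 CPM. Its log2 fold change of -0.85 (SE 0.35, edgeR adjusted p = 0.9997) stayed between -1.17 and -0.69 with 1 library left out.

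The other phosphofructokinase subunits were also fitted below 0. Pfkm, the muscle-type subunit, was covered by 82, 301 and 1 counts in 15C4 against 109, 387 and 258 in IgG, or 9.76, 15.4 and 0.156 against 21.1, 40.1 and 22.1 CPM. The groups were separate, and the fit of -1.65 (SE 1.21) was -1.08 without 15C4 3, the library with 1 count. Pfkl, the liver-type subunit, was at 145, 102 and 19.9 CPM in 15C4 and 85.8, 174 and 144 CPM in IgG, and these groups overlapped (fit -0.56, SE 0.64). Pfkfb3, whose product makes the phosphofructokinase activator fructose 2,6-bisphosphate, was one of 4 glycolysis and lactate members fitted above 0. It was at 7.26, 45.9 and 127 CPM in 15C4 and 39.4, 39.5 and 19.9 CPM in IgG. The 15C4 libraries held both its lowest and its highest level, and the fit of 1.04 (SE 0.93) went to -0.21 without 15C4 3.

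Aldoa and Tpi1 had the highest levels of the set per kilobase of exon. Aldoa, which cleaves fructose 1,6-bisphosphate, was at 1949, 1827 and 1221 CPM in 15C4 and 1497, 1974 and 3002 CPM in IgG, and Tpi1, which interconverts the resulting triose phosphates, at 1899, 1939 and 1285 and 1345, 1696 and 3160.1 CPM. For both genes IgG 3 was the highest library and 15C4 3 the lowest, while 15C4 1 and 2 lay between IgG 1 and IgG 2 for Aldoa and above IgG 1 and 2 for Tpi1. Their fits were -0.30 (SE 0.34) and -0.20 (SE 0.38), and without IgG 3 they turned to 0.050 and 0.28. Aldoc, the brain-type aldolase, lay between 11.9 CPM in 15C4 3 and 74.4 CPM in IgG 2, with a fit of -0.48 (SE 0.66).

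All 6 payoff members were fitted below 0 (median -0.55). Pgk1, phosphoglycerate kinase, the first ATP-producing step (chromosome X, 106187100 to 106203699), was at 447, 441 and 329 CPM in 15C4 and 469.9, 774 and 718 CPM in IgG. The 15C4 libraries lay below, by a narrow margin between 15C4 1 and IgG 1, and the log2 fold change was -0.60 (SE 0.31, edgeR adjusted p = 0.9997). Gapdh, which oxidises glyceraldehyde 3-phosphate and is often used as a reference gene, was at 988, 1294 and 749 CPM in 15C4 and 698, 1233 and 2459.7 CPM in IgG. IgG libraries were both the lowest and the highest, and the fit of -0.45 (SE 0.47) became 0.18 without IgG 3. Pkm, pyruvate kinase, which makes pyruvate and ATP, was at 923, 615 and 274 CPM in 15C4 and 682, 1232 and 1028 CPM in IgG, with a fit of -0.65 (SE 0.42). Of its libraries 15C4 3 was the lowest and 15C4 1 lay among the IgG values. Pgam1, a phosphoglycerate mutase, ranged from 39.8 CPM in IgG 1 to 111 CPM in IgG 3, with the 15C4 libraries between (fit -0.27, SE 0.50).

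The enolases, which form phosphoenolpyruvate, were at the bottom of the set. Eno1 had only 20, 166 and 11 counts in 15C4 against 31, 27 and 118 in IgG (fit -0.49, SE 1.24). Eno2, the neuronal enolase, had 3, 43 and 0 counts in 15C4 and 8, 56 and 274 in IgG. Its fit of -3.45 (SE 1.81) thus rests on few reads in most libraries. The fit was -1.95 without IgG 3 and -5.70 without 15C4 2.

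How reads that fit more than 1 gene were counted is not stated in the labels, and this bears on several members. In GENCODE M21, 72.2% of the distinct 50-base stretches of the longest coding Eno1 transcript also occur in transcripts of other genes, chiefly Eno1b, which itself was at 11.4, 14.3 and 5.32 CPM in 15C4 and 11.01, 8.09 and 23.4 CPM in IgG. The share was 82.5% for Gapdh, 68.0% for Pgk1, 41.5% for Pgam1, 34.4% for Pkm, 30.3% for Pdhb, 27.0% for Ldhb and 25.3% for Gpi1. Pfkp shared 17.1%, all of it with its neighbour Pitrm1, and Pdha1 shared 16.9%, chiefly with Map3k15. Hk2, Pfkm, Idh1, Idh2 and Mdh1 shared 0%. The levels of the genes with large shares are therefore uncertain.

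The promoters of 3 of the genes separated in CPM are shown, with the core of the hypoxia response element in capitals. Any part of this element in the fitted differences was not tested. The core was searched as ACGTG and GCGTG on both strands, so that CACGT and CACGC are the same letters read on the other strand, and a CACGTG counts once on each. RefSeq promoter windows (GRCm38.p6, 250 bases before to 50 after a start) were found for 31 of the 33 members. The 250 bases before the start are printed 5′ to 3′ on the gene's strand, for Gpi1 at chr7:34230337-34230586 (minus strand), Pfkp at chr13:6648772-6649021 (minus strand) and Pgk1 at chrX:106186850-106187099 (plus strand).
Gpi1: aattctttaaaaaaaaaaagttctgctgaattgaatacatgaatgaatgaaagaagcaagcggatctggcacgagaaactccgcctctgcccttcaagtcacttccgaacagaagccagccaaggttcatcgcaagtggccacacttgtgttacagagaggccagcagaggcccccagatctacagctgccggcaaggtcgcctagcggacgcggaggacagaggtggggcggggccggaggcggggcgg
Pfkp: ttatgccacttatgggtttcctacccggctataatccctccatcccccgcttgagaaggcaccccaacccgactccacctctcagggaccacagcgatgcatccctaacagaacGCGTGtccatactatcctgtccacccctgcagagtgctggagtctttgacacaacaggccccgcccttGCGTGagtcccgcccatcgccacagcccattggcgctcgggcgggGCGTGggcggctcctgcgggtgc
Pgk1: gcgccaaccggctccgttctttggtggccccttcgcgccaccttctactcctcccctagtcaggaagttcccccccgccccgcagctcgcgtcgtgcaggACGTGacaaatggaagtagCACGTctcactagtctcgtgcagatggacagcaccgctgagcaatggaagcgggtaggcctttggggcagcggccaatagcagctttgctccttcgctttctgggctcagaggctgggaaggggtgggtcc
Pgk1 has 2 matches, which begin 150 and 131 bases before the start, and Pfkp has 3, which begin 136, 68 and 23 bases before it. Gpi1 has 0 in these bases. A match was present in at least 1 window of 26 of the 31 members (83.9%), of 17 of 20 glycolysis and lactate members (85.0%) and of 9 of 11 mitochondrial-arm members (81.8%). The share was 69.2% of the 8568 tested genes with a window and 46.7% of all 27025 genes with one. A gene with more windows has more places for a match, and the 31 members had 49 windows. Counted by window, a match was in 81.6% of the member windows and in 43.8% of all 32851 windows. The share by window was not taken over tested genes. Such matches describe letters and not binding, and the absence of one says only that these letters are not in the window.

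In lactate handling the 2 dehydrogenase subunits went opposite ways in sign. Ldha, whose subunit favours the formation of lactate (chromosome 7, 46841475 to 46855627), was at 1773, 1859 and 1050.1 CPM in 15C4 and 1453, 2297 and 2887 CPM in IgG. IgG 3 was the highest and 15C4 3 the lowest, and 15C4 1 and 2 lay above IgG 1 (log2 fold change -0.43, SE 0.35). Ldhb, whose subunit favours the reverse reaction, was at 259.9, 362 and 619 CPM in 15C4 and 274, 148 and 446 CPM in IgG. Here 15C4 3 was the highest library and IgG 2 the lowest (0.64, SE 0.52, between 0.14 and 1.13 with 1 library left out). Slc16a1, the transporter MCT1, was at 183, 102 and 367 CPM in 15C4 and 199, 221 and 103 CPM in IgG, and its fit of 0.45 (SE 0.54) turned to -0.26 without 15C4 3. Slc16a3, the lactate exporter MCT4, had a highest level of 35.1 CPM, in 15C4 1 (fit -0.0037, SE 0.78).

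The pyruvate dehydrogenase complex held 1 separated member. Pdha1, its E1 alpha subunit (chromosome X, 160122209 to 160138413), was at 65.5, 70.0 and 76.2 CPM in 15C4 and 104, 114 and 85.6 CPM in IgG. The spread in 15C4 was small (mean 70.6 ± 5.37 against 101 ± 14.4 CPM, SD, n = 3 each) and the fit was -0.42 (SE 0.39). Pdhb, the E1 beta subunit that pairs with it, was at 56.2, 98.9 and 313 CPM in 15C4 and 150.3, 78.1 and 143 CPM in IgG, and Dlat, the E2 subunit, at 49.3, 150.2 and 205 and 99.1, 80.0 and 116 CPM. For both, 15C4 1 was the lowest library and 15C4 3 the highest. Their fits were 0.49 (SE 0.67) and 0.60 (SE 0.56), and -0.63 and 0.087 without 15C4 3.

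Idh1 and Idh2 had the highest fits of the mitochondrial arm. Idh1, the cytosolic NADP-dependent enzyme (chromosome 1, 65158616 to 65186500), was at 53.9, 195 and 268 CPM in 15C4 and 42.5, 47.3 and 100.01 CPM in IgG. 15C4 2 and 3 were the highest libraries, while 15C4 1 lay among the IgG libraries. The log2 fold change was 1.59 (SE 0.66, edgeR adjusted p = 0.9997), 1.03 without 15C4 3 and 2.11 without IgG 3. Idh2, its mitochondrial counterpart (chromosome 7, 80094846 to 80115392), was at 162, 225 and 256 CPM in 15C4 and 168, 88.9 and 131 CPM in IgG. 15C4 1 lay inside the IgG range and 15C4 2 and 3 above it, and the fit of 0.84 (SE 0.40, edgeR adjusted p = 0.9997) lay between 0.62 and 1.08 with 1 library left out. Idh3a, the catalytic subunit of the NAD-dependent enzyme of the cycle itself, was at 173, 472 and 556 CPM in 15C4 and 325, 352 and 480.2 CPM in IgG, and its groups overlapped throughout (fit 0.19, SE 0.48).

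The remaining TCA members showed overlapping groups. Cs, citrate synthase, lay between 149.5 and 226 CPM, and Ogdh, the E1 subunit of the oxoglutarate dehydrogenase complex, between 109 and 144 CPM. Ogdh had the narrowest range of the 33 members, with the highest library 1.32 times the lowest. Suclg1, the alpha subunit of succinyl-CoA ligase, was near 200 CPM in 4 libraries and at 369 and 424 CPM in 15C4 3 and IgG 3. Fh1, fumarate hydratase, ranged from 32.02 CPM in 15C4 1 to 139 CPM in IgG 3. The malate dehydrogenases had their lowest levels in the same libraries. Cytosolic Mdh1 was at 389.7, 820.2 and 1173 CPM in 15C4 and 660.2, 421 and 713 CPM in IgG, and mitochondrial Mdh2 at 174, 357 and 529 and 292, 222 and 626 CPM. In both genes, 15C4 1 was the lowest of its group and IgG 2 of its own. The fits of these 6 genes lay between -0.47 for Fh1 and 0.54 for Mdh1.

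Summed over the 21 glycolysis and lactate members, levels were 10222, 9998 and 6843 CPM in 15C4 and 8699, 12064 and 16246 CPM in IgG. IgG 3 was the highest and 15C4 3 the lowest, and IgG 1 lay below 15C4 1 and 2. IgG 3 was also the library with the lowest pan-endothelial sum, 195 CPM. The 12 pyruvate dehydrogenase and TCA members summed to 1623, 2992 and 4169 CPM in 15C4 and 2371, 1983 and 3326 CPM in IgG. Here 15C4 3 was the highest and 15C4 1 the lowest, so that the 15C4 group held both ends. Across single genes, 15C4 3 was the lowest library for 13 of the 21 glycolysis and lactate members and the highest for 6 of the 12 others, while 15C4 1 was the lowest for 9 of those 12. IgG 3 was the highest library for 8 of the 21 and for 5 of the 12.

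**Figure D3:**
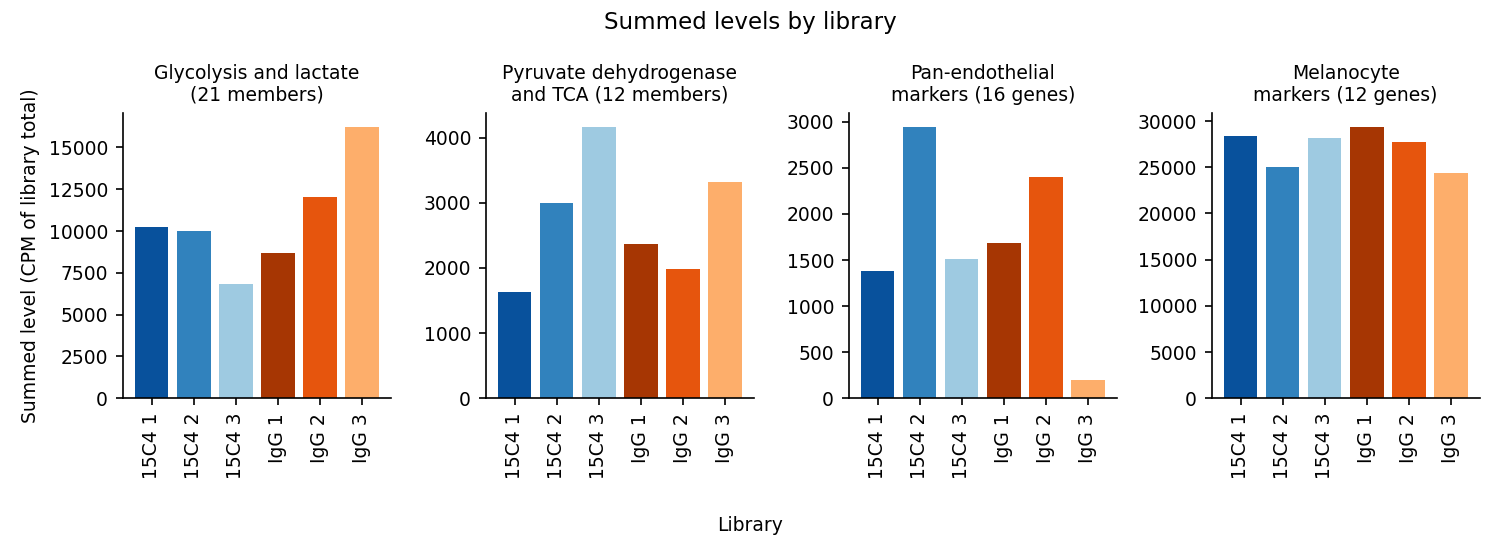
Summed level in CPM of the library total, by library, for the 21 glycolysis and lactate members, the 12 pyruvate dehydrogenase and TCA members, 16 pan-endothelial markers and 12 melanocyte markers (each panel has its own axis from 0). IgG 3 has the highest glycolysis sum, 16246 CPM, and the lowest endothelial sum, 195 CPM, and 15C4 3 has the lowest glycolysis sum and the highest TCA sum.

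Markers of other cell types were high in single libraries. Those of T and NK cells reached 514 CPM in IgG 1, led by Gzma, 219 CPM in 15C4 1 and at most 21.4 CPM elsewhere. In 15C4 1, Ccl5 alone gave 214 CPM. The other markers of that list were each at most at 1.90 CPM there, with Cd3e, Cd3d and Cd8a at 0. Lymphatic markers reached 1168 CPM in IgG 2. The summed level of 11 macrophage and monocyte markers was 184 CPM in IgG 1, led by Ptprc, Tyrobp and Fcer1g, which other leukocytes share, and 75.3 CPM in 15C4 2, where C1qa, C1qb, C1qc and Mrc1 were highest. Fibroblast markers summed to 153 CPM in 15C4 3, of which Lum alone gave 151 CPM, and to 94.1 CPM in IgG 1, the library with the highest levels of the other 5. The sum of the 6 pericyte and smooth muscle markers was higher in every 15C4 library (13.0, 35.9 and 36.0 CPM) than in any IgG library (9.66, 3.22 and 2.57 CPM), but the groups overlapped for each of the 6 genes, with between 2 and 4 of the 6 at 0 in each library. Of the erythroid markers Hbb-bs, Hbb-bt, Hba-a1 and Hba-a2 were at 0 in all libraries. The part of these cells in the glycolysis values was not tested.

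Ratios within a library need no scaling between libraries. Levels per kilobase use the union of all annotated exons of a gene, which can be longer than any single transcript. Comparisons between genes, and their ranks, depend on that choice. Per kilobase of exon, the summed level of the glycolysis and lactate members was 6.59, 3.49 and 1.82 times that of the mitochondrial-arm members in 15C4 1, 2 and 3 and 3.67, 6.40 and 5.33 times in IgG 1, 2 and 3. The lowest ratio was that of 15C4 3 and the highest that of 15C4 1, so the treatment groups overlapped. Averaged over the 6 libraries, Tpi1 (686 CPM per kb), Aldoa (657) and Ldha (569.99) had the highest levels per length and Slc2a3, Eno2 and Eno1 the lowest, at 1.74, 1.18 and 0.976 CPM per kb. Mdh1 (271 CPM per kb) was the most abundant of the mitochondrial-arm list.

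Isozyme shares, also per kilobase of exon, varied more in some families than in others. Hk2 made up 93.1, 86.8 and 69.2% of the hexokinase pair in 15C4 and 88.8, 83.3 and 83.8% in IgG. Aldoa made up at least 96.7% of the aldolase pair in each library and Slc16a1 at least 86.2% of the MCT1 and MCT4 pair. Ldha held 76.4, 70.9 and 44.6% of the lactate dehydrogenase pair in 15C4 and 71.6, 88.0 and 75.4% in IgG. By this length, 15C4 3 was the 1 library with more Ldhb than Ldha. In CPM it held more Ldha, at 1050.1 against 619. The exon union is 3310 bases for Ldha and 1570 for Ldhb, and the longest coding transcripts have 1815 and 1304. Which of the pair was higher in 15C4 3 thus depends on the length used. Among the phosphofructokinase subunits Pfkp held 34.7, 49.9 and 76.6% in 15C4 and 61.2, 41.4 and 47.2% in IgG. The exon union is 13401 bases for Pfkp, 6675 for Pfkl and 3340 for Pfkm. Their longest coding transcripts have 4145, 3730 and 2879 bases, so these shares depend on the length used. Pfkm was the 1 isozyme in 8 families of which all 15C4 shares (7.75, 11.6 and 0.362%) lay below all IgG shares (12.8, 18.5 and 12.4%). The margin between 15C4 2 and IgG 3 was narrow, and the share of 15C4 3 rests on 1 Pfkm count. Such shares were not formed over all tested genes, so this separation has no background beside it. Idh1 made up 23.7, 44.8 and 49.4% of the Idh1 and Idh2 pair in 15C4 and 19.1, 33.2 and 41.7% in IgG, so the shares overlapped although both genes were fitted above 0. Mdh1 held 75.7, 76.1 and 75.5% of the malate dehydrogenase pair in 15C4 and 75.8, 72.4 and 61.2% in IgG, with IgG 3 apart from the others.

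**Figure D4:**
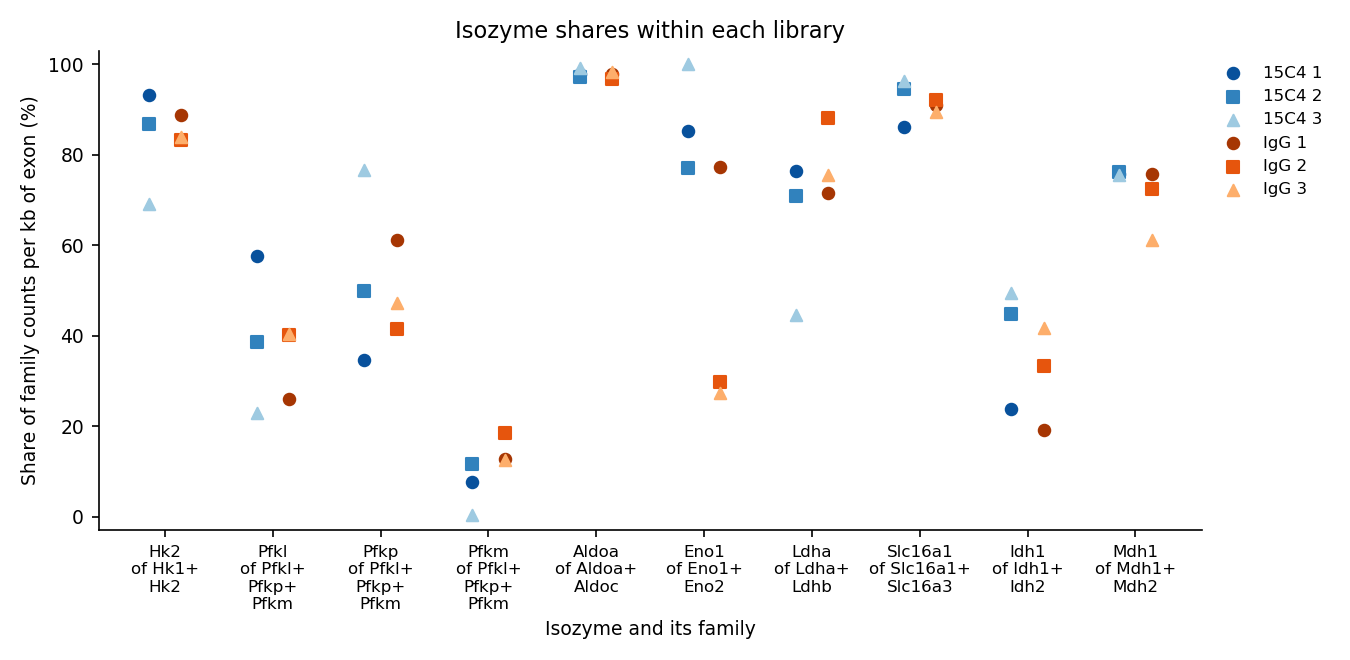
Share of each isozyme in the counts per kilobase of exon of its family (%), by library, with 15C4 libraries in blue and IgG libraries in orange. Pfkm is the 1 isozyme shown whose 15C4 points all lie below the IgG points, although its 15C4 3 point rests on 1 count. The Ldha share of 15C4 3, 44.6%, is the lowest of the 6.

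Other genes of carbon metabolism, from 5 lists of pathway neighbours, held no gene that passed the edgeR test. Of 29 further genes of glycolysis and its side steps 15 were tested, 7 below and 8 above 0 (median 0.15). The fit for Pgm2, a gene of the phosphoglucomutase family, was -0.87 (SE 0.31, edgeR adjusted p = 0.9997). Its levels were 194, 203 and 125 CPM in the 15C4 libraries against 310.1, 345 and 349.6 CPM in the IgG libraries. Its groups were separate, as were those of Pfkfb4, at 3, 0 and 0 against 6, 19 and 106 counts, and of Adpgk, named after its values were seen, at 27.9, 20.4 and 27.1 against 51.2, 35.0 and 37.0 CPM. These are 3 of the 15, beside 6.64% of all tested genes. Bsg, the chaperone of the monocarboxylate transporters, had a fit of -0.87 (SE 0.46). Slc2a1, the main endothelial glucose transporter GLUT1, was at 256, 343 and 547 CPM in 15C4 and 314, 422 and 249 CPM in IgG, highest in 15C4 3 (0.35, SE 0.41), and Eno3 (1.08, SE 1.25) and the transporter gene Slc16a7 (2.33, SE 2.52) were the others named above 0. Without 15C4 3 the fits of Slc2a1 and Eno3 were -0.078 and -0.28. Slc16a7 had 0, 0 and 580 counts in 15C4 against 1, 15 and 218 in IgG, so that its sign rests on 15C4 3 and turns without it. Without IgG 3 Bsg was at -0.43.

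Control of pyruvate dehydrogenase gave 5 tested genes below and 5 above 0 (median -0.15). Pdk1, a kinase that switches the complex off, was at 74.3, 296 and 47.1 CPM in 15C4 and 197, 311 and 252 CPM in IgG. Both 15C4 1 and 15C4 3 lay below the IgG libraries and 15C4 2 among them (fit -0.76, SE 0.65). Pdp2, a phosphatase that acts against these kinases, had 0, 1 and 17 counts in 15C4 against 27, 131 and 21 in IgG, too few in 15C4 1 and 2 for a stable fit (-2.74, SE 2.01, and -7.25 without 15C4 3). Pdk3 was at -0.45 (SE 0.59), while Pdhx was at 1.19 (SE 0.86), Dld, the shared E3 subunit, at 0.62 (SE 0.56) and the pyruvate carrier gene Mpc1 at 1.03 (SE 0.95). Without 15C4 3 these last 3 were at -0.11, -0.25 and -0.44. Without 15C4 2 Pdk1 was at -1.99.

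Of 19 tested genes of the TCA cycle and its exits, 10 were below and 9 above 0 (median -0.039), and the groups of none were separate. The succinate dehydrogenase subunits were fitted at -0.16 for Sdha, 0.31 for Sdhb, 0.76 for Sdhc and 0.29 for Sdhd, with SEs from 0.37 to 0.54. Aco1 was at 0.56 (SE 0.73), Me2 at -0.43 (SE 0.72) and Got2 at -0.29 (SE 0.59). With 1 library left out, the fits of Sdha, Sdhd, Aco1 and Got2 reached the other side of 0.

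The 8 pentose phosphate genes split evenly, 4 below and 4 above 0. In the oxidative branch, which yields NADPH, H6pd, Pgls and Pgd were lower in every 15C4 library than in any IgG library, as were 6.64% of all tested genes. The groups of G6pdx, the first enzyme of that branch, named after its values were seen, overlapped at 35.2, 19.9 and 44.9 against 20.5, 51.9 and 46.9 CPM (fit -0.15, SE 0.63). Pgls was at 30.4, 22.9 and 20.5 against 39.4, 47.7 and 50.2 CPM and Pgd at 36.2, 37.8 and 24.1 against 54.7, 46.1 and 41.3 CPM, with fits of -0.82 (SE 0.53) and -0.45 (SE 0.51), and H6pd was at 6.67, 3.27 and 0 against 14.5, 26.9 and 10.4 CPM. Rpia (0.85, SE 0.62), Rpe (0.66, SE 0.63) and Tkt (0.60, SE 0.59) of the non-oxidative branch were fitted above 0.

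Among 11 tested regulators, 6 were below and 5 above 0, and the groups of none were separate. Hif1a, the oxygen-regulated subunit of the factor that drives many glycolytic genes, was at 358, 435 and 172 CPM in 15C4 and 556, 329 and 579.6 CPM in IgG, lowest in 15C4 3 (-0.53, SE 0.41). Its hydroxylases Egln1 and Egln2 were at -0.63 (SE 0.51) and -0.88 (SE 0.86). Epas1, the second such subunit and abundant in endothelium, was at 197, 206 and 83.7 CPM in 15C4 and 139.5, 163 and 18.4 CPM in IgG (0.68, SE 0.72), with its lowest level in IgG 3, the library with the fewest endothelial transcripts. Arnt, the partner subunit, was at 0.45 (SE 0.57) and Egln3 at 0.70 (SE 1.29).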

How the data were processed

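Counts of reads per gene symbol were deposited by the authors as 1 file per library, without normalisation. Per the submitters' processing notes, the tools were STAR 2.5b, featureCounts, fastp and DESeq2, with mm10 and mm9 both listed as builds and no role given to either. Annotation, strand setting and the treatment of multi-mapping reads: not given in the sources used here. A series-wide table of the authors' comparison was not used here. Per the labels' protocols, cDNA was amplified by PCR before Nextera XT library preparation. Molecular identifiers are not mentioned, so reads are not taken as independent molecules.

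Counts were tested with edgeR 4.0.16 (R 4.3.3), TMM factors, filterByExpr (minimum count 10, total 15) and treatment as the only term, at an adjusted p of 0.05. The SE is the absolute log2 fold change over the square root of the F statistic. CPM use library totals. Exon lengths are the union of all annotated exons of a gene. They and the coordinates are from GENCODE M21 (GRCm38). Alternatives were RLE factors, library totals, no filter, a mean count of at least 50, DESeq2 1.42.0, limma-voom (limma 3.58.1), leaving out libraries, and the replicate number as a block. The code was tested on simulated data. Members and lists were chosen with earlier results of these data known. All members are named. Of each neighbour list, the text names up to 3 tested genes on each side of 0, by smallest unadjusted p, with Slc2a1, Pdk1, Hif1a and the succinate dehydrogenase genes. A gene that this rule also names is not reported here.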

Additional observations from a re-analysis of the deposited data

How the results depend on the processing

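The count of members called was 0 in each of the 14 alternatives. Over all genes edgeR called 1 gene with no filter, DESeq2 called 23, and every other alternative called 0. The median of the glycolysis and lactate members lay between -0.62 and -0.43 under other scalings, filters, tools and the replicate block, and between -0.68 and -0.16 with 1 library left out. That of the mitochondrial-arm members lay between -0.0049 and 0.22, and between -0.21 (without 15C4 3) and 0.56 (without IgG 3). The median of all tested genes moved too, to -0.15 with the replicate block and -0.14 with limma-voom. With 1 library left out, between 13 and 26 of the 33 members were below 0. The groups of between 6 and 12 members were then separate with 15C4 lower, beside 10.6% to 17.9% of tested genes. Those of between 0 and 5 members were separate with 15C4 higher, beside 5.16% to 8.47% of tested genes. Fewer libraries make separation easier. The sign of 17 members, 11 of them below 0, held in all 14. Signs turned for Slc16a3 (0.029) with RLE factors, Slc2a3 (-0.019), Suclg1 (-0.10), Mdh2 (-0.11) with library totals, Slc16a3 (0.0029) with no filter, Slc16a3 (0.0082) with the stricter filter, Slc16a3 (0.029) with DESeq2 and Slc2a3 (-0.89), Idh3a (-0.021), Suclg1 (-0.088), Mdh2 (-0.072) with limma-voom. With 15C4 3 and IgG 3 both left out, an alternative chosen after seeing the data, they turned for Slc2a3 (-1.46), Pfkfb3 (-0.46), Aldoa (0.17), Tpi1 (0.39), Gapdh (0.30), Pgam1 (0.22), Eno1 (0.40), Ldha (0.0089), Slc16a1 (-0.53), Pdhb (-0.49). With 1 library left out, fits that turned ranged over -1.47 to 0.64 for Slc2a3, -0.21 to 1.58 for Pfkfb3, -0.50 to 0.050 for Aldoa, -0.43 to 0.28 for Tpi1, -0.79 to 0.18 for Gapdh, -0.57 to 0.18 for Pgam1, -1.56 to 0.052 for Eno1, -0.26 to 0.81 for Slc16a1, -0.59 to 0.41 for Slc16a3, -0.63 to 0.91 for Pdhb, -0.20 to 0.57 for Idh3a, -0.22 to 0.095 for Ogdh, -0.43 to 0.49 for Suclg1, -0.77 to 0.0045 for Fh1, -0.48 to 0.62 for Mdh2. The causes were not tested, and where 1 library of a group is left out the fit rests on 2.

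Libraries share replicate numbers across the treatments. Deviations from the group mean over tested genes correlated at -0.0357, 0.0633 and 0.101 between same-numbered libraries. Over all pairs across the treatments the correlations lay between -0.104 and 0.101. With 3 libraries a group, such values cannot tell whether same-numbered libraries were handled together. The main fit did not use the numbers. With the replicate number as a block, 0 genes were called, the glycolysis and lactate median was -0.62 and signs turned for Slc2a3 (-0.62), Mdh2 (-0.013). In that fit 58.2% of all tested genes were below 0, with a median of -0.15. Low counts limit Pfkm, Eno1 and Eno2 most, each with under 15 counts in at least 1 library. The fitted biological coefficient of variation was 0.861 over 3 libraries a group, and a missed threshold does not show equal levels.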
